A study of Mus musculus with 8 samples.

Results

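Endothelial and lymphatic genes were compared between hearts of mouse embryos labelled WT and labelled as knockouts of SIRT1, an NAD-dependent deacetylase, at E18.5, close to birth. The genes were a fixed list of 40 that mark or control blood vessel, endocardial and lymphatic endothelium, and a member was any probe whose accession maps to one of them. Probes were found for 39 of the 40, out of 19092 genes named on the array. They had 59 probes out of 41174, and 56 of these passed the filter for dim probes. No probe matched *Tal1*, which was not analysed here. Every one of the 39 genes passed the filter on at least 1 probe, and 53 of the 56 probes were well above background in all 8 hearts.

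The study compared 4 WT hearts with 4 hearts labelled SIRT1 KO, a whole-body germ-line knockout, all on the C57BL/6 strain (C57BL/6J in the study's methods), on a chow diet. The embryos came from heterozygous parents, and hearts of either sex were used. Each sample was hybridized to a 1-color Agilent array. With whole hearts, fewer endothelial cells and less RNA per endothelial cell cannot be told apart.

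The WT arrays share 1 slide and scan day and the arrays labelled SIRT1 KO share another, so slide and genotype cannot be told apart. Of the probes tested, 4.88% differed between the genotypes at an adjusted p of 0.05 (limma). Relative to WT, 3.97% were higher and 0.91% were lower. On the arrays, *Sirt1* was not lower past that threshold on either of its probes, and the brighter one was higher by 0.54 on the log2 scale (adjusted p = 0.0323, limma). The part of the transcript these probes cover is not known here. Genotype here therefore means the label, and a negative difference means less signal in the hearts labelled SIRT1 KO than in WT.

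Endothelial cells line every vessel and the heart chambers. They grow and survive through vascular endothelial growth factors (VEGFs), which bind the receptors KDR, FLT1 and FLT4, and they mature through the angiopoietins, which bind TEK. ETS factors such as ERG, FLI1 and ETS1, together with SOX factors, hold the endothelial program in place, and PROX1 specifies the lymphatic branch. In the late embryonic heart these cells form the dense capillary bed between the cardiomyocytes, the endocardium, the coronary vessels and a growing lymphatic network.

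Because ERG, FLI1 and ETS1 bind ETS motifs, the bases upstream of the members' starts were searched for ETS-type letters. RefSeq promoters (GRCm38.p6) were at hand for 18 of the 40 genes. In the 250 bases before a start, CAGGAAG on either strand was found in 5 of the 18 genes (27.8%), which were *Apln*, *Egfl7*, *Emcn*, *Erg* and *Robo4*, against 15 of 74 genes of a wider vascular list (20.3%) and 12.1% of the 27025 genes with such a sequence. CCGGAA was found in 1 of the 18, *Kdr* (5.56%), against 12.2% of the wider list and 13.6% of all. A match is only a match of letters, and its absence says nothing of the factor. The sequences below show 3 members with the first motif, then *Eng*, whose levels did not overlap between the genotypes, and last *Car4*, an endothelial gene outside the list that was lower. They run 5′ to 3′ and end at the base before the start, and capitals mark either motif on either strand, which in *Car4* is 1 stretch where both strands of CCGGAA overlap.
Emcn, chr3:137340828-137341077, + strand: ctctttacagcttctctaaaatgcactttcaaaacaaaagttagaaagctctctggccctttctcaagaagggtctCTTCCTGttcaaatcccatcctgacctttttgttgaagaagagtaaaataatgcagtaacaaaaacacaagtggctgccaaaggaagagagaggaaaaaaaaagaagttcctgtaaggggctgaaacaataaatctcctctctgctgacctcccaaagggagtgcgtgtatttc
Egfl7, chr2:26580833-26581082, + strand: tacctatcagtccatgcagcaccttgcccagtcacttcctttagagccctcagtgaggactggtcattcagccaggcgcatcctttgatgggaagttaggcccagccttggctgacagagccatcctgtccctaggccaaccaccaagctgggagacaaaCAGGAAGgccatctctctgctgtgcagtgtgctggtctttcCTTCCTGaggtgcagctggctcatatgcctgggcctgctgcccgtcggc
Robo4, chr9:37401722-37401971, + strand: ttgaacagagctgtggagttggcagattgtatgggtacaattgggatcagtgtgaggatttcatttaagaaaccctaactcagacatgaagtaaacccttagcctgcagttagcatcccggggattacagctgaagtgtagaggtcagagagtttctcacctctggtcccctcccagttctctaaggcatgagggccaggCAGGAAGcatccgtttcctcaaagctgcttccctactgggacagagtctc
Eng, chr2:32646345-32646594, + strand: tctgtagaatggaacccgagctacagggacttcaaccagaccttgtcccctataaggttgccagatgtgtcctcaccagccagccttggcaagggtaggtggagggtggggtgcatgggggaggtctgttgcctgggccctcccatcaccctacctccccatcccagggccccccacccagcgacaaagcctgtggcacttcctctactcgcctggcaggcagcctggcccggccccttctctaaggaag
Car4, chr11:84957504-84957753, + strand: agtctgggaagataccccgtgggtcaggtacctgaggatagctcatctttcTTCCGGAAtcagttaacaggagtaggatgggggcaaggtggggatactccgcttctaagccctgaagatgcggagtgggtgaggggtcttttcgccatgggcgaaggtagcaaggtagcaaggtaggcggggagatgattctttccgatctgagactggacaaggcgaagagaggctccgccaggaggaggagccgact

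None of the 39 genes changed past the threshold, in either direction. On the brightest probe of each gene 0 of 39 passed an adjusted p of 0.05 with limma, against 4.58% of all 13590 genes tested, and over the 56 probes the count was also 0. At an unadjusted p under 0.05 there were 5 of the 39 (12.8%), against 20.4% of all genes. That count was 2 to 6 with 1 heart left out and 3 without the filter on dim probes. It was 15 with each array centred on its median and 23 without scaling. The share over all genes was not taken under these settings. The methods' analysis of variance gave the same counts on the 39 genes, 5 unadjusted and 0 after adjustment. The log2 fold changes ran from -0.31 for *Angpt1* to 0.14 for *Ecscr*, with a median of -0.07 against -0.01 over all genes.

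Most of the differences were small and negative. Of the 39 genes, 31 (79.5%) had a lower mean in the hearts labelled SIRT1 KO, against 51.6% of all genes. This count was 32 with quantile normalization and 31 with cyclic loess. It was 27 with the normexp background correction, 37 with each array centred on its median and 39 without scaling. The last 2 moved the median over all genes itself to -0.14 and -0.23. Relative to all genes the members' median was -0.07 with the 75th percentile, with median centring and without scaling, -0.06 with normexp, -0.05 with cyclic loess and -0.04 with quantile normalization. It was -0.13 without the filter on dim probes, where 41.1% of all genes were lower, and -0.10 to -0.04 with 1 heart left out. Without scaling 11 genes passed as lower, while 27.1% of all genes passed.

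The intervals give a size, but they rest on the spread between hearts within a slide. A difference between the slides is not in them. The 95% confidence interval of the difference lay within a 1.5-fold change in either direction for 37 of the 39 genes. Those that reached past 1.5-fold on the brightest probe were *Angpt1* and *Flt4*. Dimmer probes of *Angpt1*, *Flt1* and *Vegfa* also reached past it, with lower ends down to -1.30, -0.76 and -0.62 on the log2 scale. The count depends on the scaling, being 30 with median centring and 18 without scaling, and it was 32 to 36 with 1 heart left out.

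**Figure D1:**
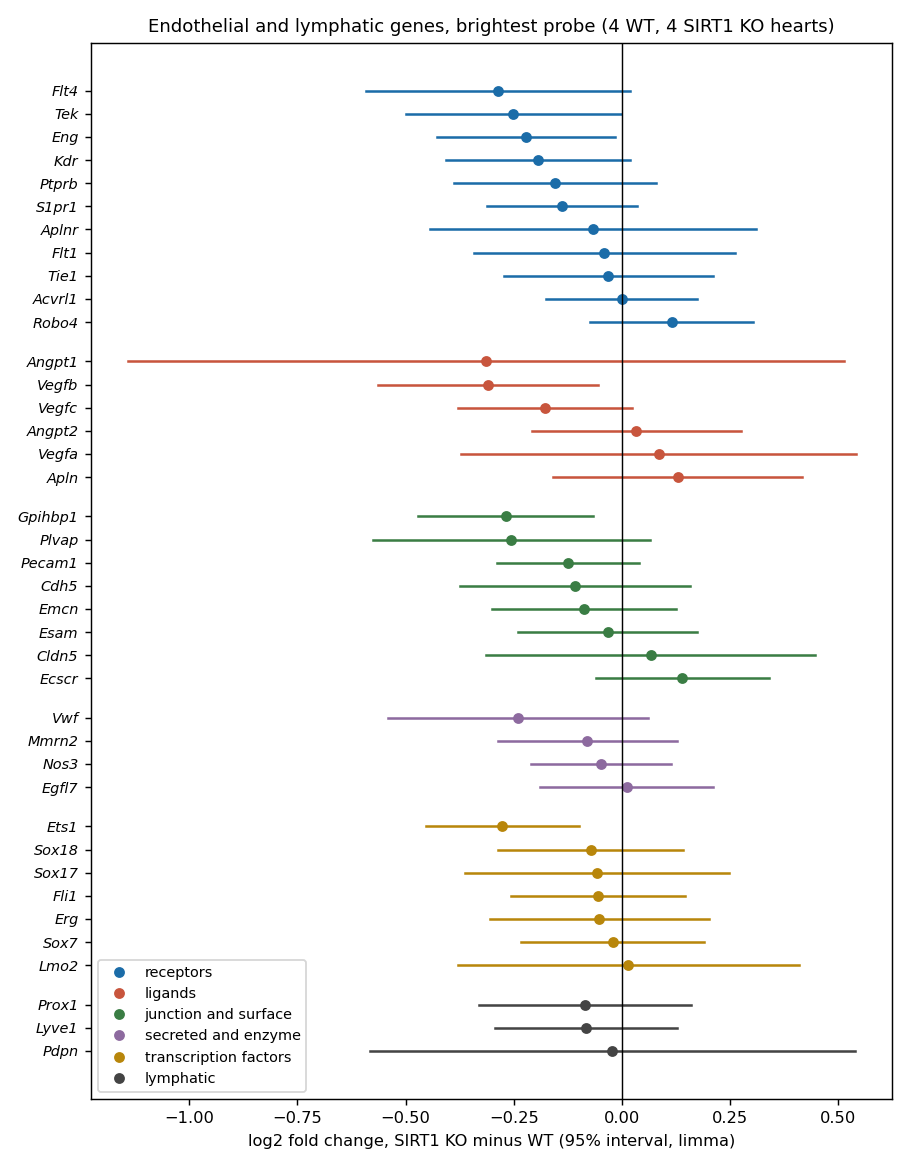
Log2 fold change of each of the 39 genes on its brightest probe (horizontal axis, hearts labelled SIRT1 KO minus WT, 4 hearts each), grouped by role, with the 95% confidence interval from limma as a line. Of the points, 31 lie to the left of 0, none passed an adjusted p of 0.05, and the widest interval, that of *Angpt1*, runs from -1.14 to 0.51.

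The 11 receptors, through which endothelial cells receive growth, guidance and flow signals, were all measured. Values here and below are log2 signals relative to the array's 75th percentile, given for replicates 1 to 4, and they are not compared between probes. *Eng*, a co-receptor for BMP ligands, was at 2.31, 2.60, 2.33 and 2.34 in the WT hearts and at 2.17, 2.29, 2.17 and 2.05 in those labelled SIRT1 KO. The lowest WT heart was above the highest heart of the other genotype. The difference was -0.22 with a standard error of 0.09 and did not pass the threshold (adjusted p = 0.201, limma), while an exact permutation of the 8 hearts, two-sided, gave p = 0.0286, which no split of 4 and 4 hearts can undercut. Such a lack of overlap, in the lower direction, was seen in 2 of the 39 genes (5.13%) and in 5.6% of all genes, and in either direction in 14% of all. With quantile normalization or cyclic loess neither gene kept this separation.

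*Tek*, the angiopoietin receptor, was at 0.49, 0.95, 0.75 and 0.85 in WT hearts and at 0.40, 0.48, 0.50 and 0.66 in hearts labelled SIRT1 KO. WT replicate 1 lay among the latter, and the difference was -0.25 (adjusted p = 0.229, limma, standard error 0.11). *Kdr*, the main VEGF receptor of blood vessels, was tight in WT hearts, at 3.01, 2.94, 2.99 and 2.93, and wider in those labelled SIRT1 KO, at 2.83, 2.66, 2.61 and 2.99. SIRT1 KO replicate 4 reached the WT level, and the log2 fold change was -0.19 (95% interval -0.41 to 0.02, adjusted p = 0.273, limma).

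*Flt4*, the receptor for VEGF-C on lymphatic and some blood endothelium, had a log2 fold change of -0.29 (95% interval -0.59 to 0.02). *Flt1*, a decoy for VEGF, gave -0.04 on its brighter probe and -0.32 on the other. *S1pr1*, a receptor for sphingosine-1-phosphate, and *Ptprb*, the phosphatase that acts on TEK, stood at -0.14 and -0.15. Differences were within 0.12 of 0 for *Tie1*, *Acvrl1*, *Aplnr* and *Robo4*, whose value in SIRT1 KO replicate 3 was left out as an outlier spot.

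Among the 6 ligands 3 were higher and 3 lower. *Vegfb*, a VEGF made largely by cardiomyocytes that binds FLT1, was at 6.15, 6.21, 6.18 and 6.33 in WT hearts and at 5.74, 5.70, 6.04 and 6.15 in hearts labelled SIRT1 KO. Only SIRT1 KO replicate 4 overlapped the WT range (log2 fold change -0.31, standard error 0.11, adjusted p = 0.16, limma), and the dimmer probe gave -0.10. *Vegfc*, the lymphatic growth factor, stood at -0.18, *Angpt2* at 0.03 and *Apln*, the ligand of APLNR, at 0.13.

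*Vegfa*, the central growth factor of vessels, varied more between hearts than between genotypes. On its brightest probe it was at 4.13, 3.28, 3.52 and 3.89 in WT hearts and at 4.09, 3.54, 3.56 and 3.96 in those labelled SIRT1 KO (log2 fold change 0.08, 95% interval -0.37 to 0.54). In either genotype replicates 1 and 4 were high and replicates 2 and 3 low. Of its 4 probes, the brighter 2 had positive and the dimmer 2 negative differences, from -0.26 to 0.10, and none passed the threshold. Its sign on the brightest probe also turned with the scaling, to -0.04 with median centring and -0.13 without scaling.

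*Angpt1*, the activating ligand of TEK, had the largest spread between hearts among the members, with a pooled SD of 0.63 within genotypes. It was at -3.76, -2.41, -3.23 and -3.91 in WT hearts and at -4.06, -2.80, -3.86 and -3.84 in hearts labelled SIRT1 KO. Replicate 2 was the highest in each genotype, and the dimmer probe had the same replicate highest, at -2.74 and -3.34. The interval of the difference is correspondingly wide, from -1.14 to 0.51.

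**Figure D2:**
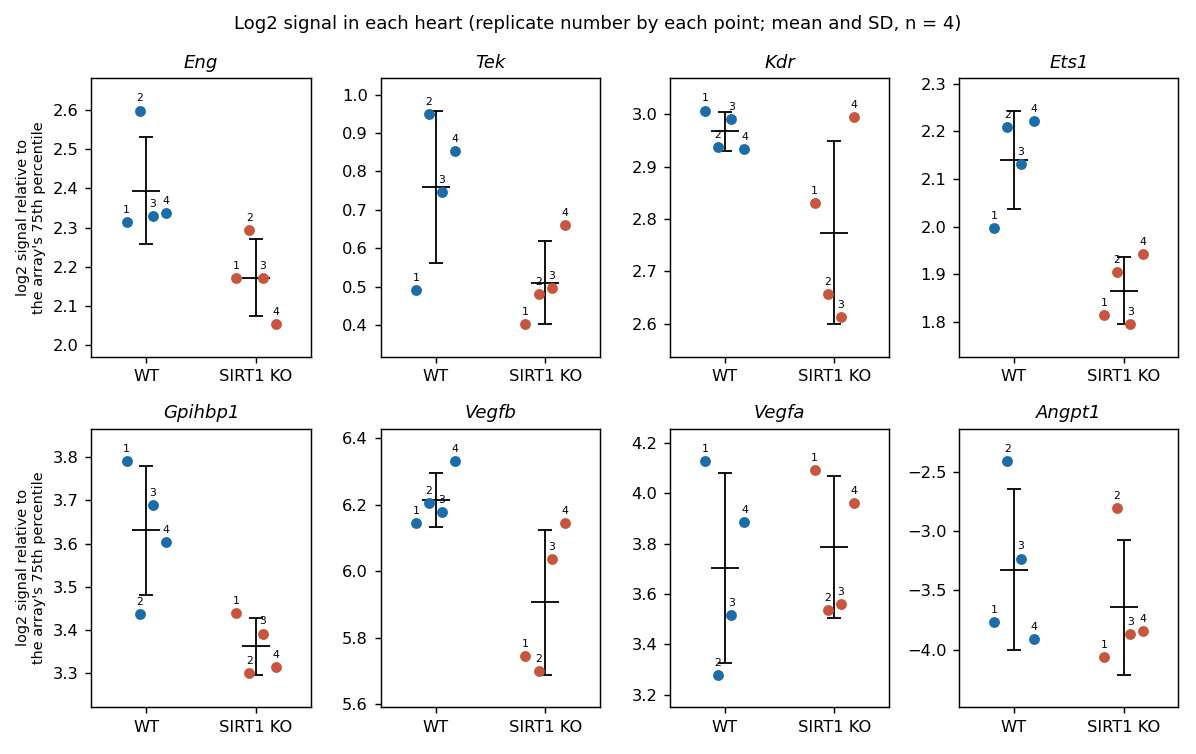
Log2 signal, relative to each array's 75th percentile, of 8 members in every heart (points, numbered by replicate) with the mean and SD of each genotype (n = 4). *Eng* and *Ets1* do not overlap between the genotypes, while *Vegfa* and *Angpt1* spread widely within each.

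The next group was that of junction and surface proteins. Some of them, such as the products of *Pecam1* and *Cdh5*, hold the endothelial sheet together and are usual markers of its amount. *Pecam1*, the platelet and endothelial adhesion molecule, was at -0.36, -0.28, -0.29 and -0.45 in WT hearts and at -0.53, -0.47, -0.39 and -0.48 in hearts labelled SIRT1 KO. The ranges overlapped through WT replicate 4 (log2 fold change -0.12, 95% interval -0.29 to 0.04, adjusted p = 0.353, limma). *Cdh5*, the VE-cadherin of endothelial junctions, ran from 3.01 to 3.51 in WT and from 2.99 to 3.32 in hearts labelled SIRT1 KO, a difference of -0.11 (95% interval -0.37 to 0.16) that its other probe gave as -0.09. It was -0.024 without WT replicate 2 and -0.19 without WT replicate 1.

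The strongest difference in this group was that of *Gpihbp1*, which carries lipoprotein lipase across capillary endothelium. Its signal was 3.79, 3.44, 3.69 and 3.60 in WT hearts and 3.44, 3.30, 3.39 and 3.31 in those labelled SIRT1 KO. WT replicate 2 and SIRT1 KO replicate 1 met at the border (log2 fold change -0.27, standard error 0.09, adjusted p = 0.131, limma). *Plvap*, of the fenestral diaphragms, stood at -0.26 and *Emcn*, a sialomucin of capillaries and veins, at -0.09. *Esam* and *Cldn5*, both of endothelial junctions, had -0.03 and 0.07, and *Ecscr* had the highest value of all members, 0.14.

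Of the 4 secreted proteins and enzymes, *Vwf*, the clotting protein of endothelial granules, had a log2 fold change of -0.24 (95% interval -0.54 to 0.06). *Mmrn2*, an endothelial matrix protein, *Nos3*, the endothelial nitric oxide synthase, and *Egfl7* lay between -0.08 and 0.01. For *Nos3*, whose pooled SD of 0.07 was the smallest among the members, the interval ran from -0.21 to 0.11.

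*Ets1* had the smallest p of all members. On its brightest probe it was at 1.998, 2.21, 2.13 and 2.22 in WT hearts and at 1.81, 1.91, 1.80 and 1.94 in hearts labelled SIRT1 KO. The genotypes did not overlap, with a difference of -0.28 (standard error 0.08) and p = 0.0286 when the hearts were permuted exactly, and the adjusted p was 0.0837 with limma. A second probe did not overlap either, with -0.17, while the dimmest overlapped, with -0.12. With 1 heart left out the value stayed between -0.32 and -0.25 and did not pass in any of the 8 fits. The brightest probe did pass with median centring (-0.40, adjusted p = 0.0247), without scaling (-0.50, adjusted p = 0.0154) and with the normexp background correction (-0.29, adjusted p = 0.046), all from limma.

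The related factors *Erg* and *Fli1* stood at -0.05 and -0.06, with a dimmer *Fli1* probe at -0.23. The SOX factors *Sox7*, *Sox17* and *Sox18*, which act in arterial and lymphatic specification, had values from -0.07 to -0.02. *Lmo2*, a bridging protein shared by endothelium and blood progenitors, had 0.01, with SIRT1 KO replicate 2 at -1.21 and the other hearts of that label between -2.03 and -1.97.

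The lymphatic genes did not separate the genotypes. *Lyve1*, a hyaluronan receptor of lymphatic endothelium that some macrophages carry too, was at 0.95, 1.23, 0.97 and 0.86 in WT hearts and at 0.90, 0.92, 1.01 and 0.84 in hearts labelled SIRT1 KO. Its log2 fold change was -0.08 on each of its 2 probes (95% interval -0.29 to 0.13 on the brighter). On that probe it was -0.0078 without WT replicate 2 and -0.13 without WT replicate 4. Of 10 macrophage markers 5 were lower and 5 higher, from -0.41 for *Cd163* to 0.64 for *Cd68*. None passed the threshold, and 2 had an unadjusted p under 0.05 (20%, against 20.4% of all genes). Their part in the value of *Lyve1* was not tested.

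*Prox1*, the lymphatic master factor, which cardiomyocytes express as well, was at -2.40, -2.63, -2.26 and -2.12 in WT hearts and at -2.38, -2.47, -2.49 and -2.40 in hearts labelled SIRT1 KO. All values labelled SIRT1 KO lay within the WT range (log2 fold change -0.09, 95% interval -0.33 to 0.16), and the dimmer probe gave 0.01. Its value was -0.18 without WT replicate 2 and -0.0094 without WT replicate 4. *Pdpn*, podoplanin, which is shared with epicardium and lung epithelium, was dim and had a wide interval, from -0.58 to 0.54.

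The level of the endothelial genes in each heart was taken as a mean over genes. Over the 39 members, each centred on its mean over the hearts, it was -0.01, 0.08, 0.04 and 0.07 in the WT hearts and -0.05, -0.01, -0.12 and -0.01 in the hearts labelled SIRT1 KO. WT replicate 1 met SIRT1 KO replicate 2, and the difference of the means was -0.09, with an SD of 0.04 in WT hearts and 0.05 in the others. The level was also taken over 10 genes chosen as general endothelial markers (*Pecam1*, *Cdh5*, *Kdr*, *Tek*, *Tie1*, *Esam*, *Egfl7*, *Erg*, *Emcn* and *Eng*). Of these, 9 had a lower mean in the hearts labelled SIRT1 KO. Their level was -0.03, 0.14, 0.05 and 0.06 in the WT hearts and -0.10, -0.08, -0.11 and 0.07 in the hearts labelled SIRT1 KO. SIRT1 KO replicate 4 was the only heart of its label above any WT heart. The difference of the means was -0.11, or -0.15 without that heart, with an SD of 0.07 in WT hearts and 0.09 in those labelled SIRT1 KO (n = 4 each). Of the 10, 9 were well above background in all 8 hearts, *Erg* in 7.

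**Figure D3:**
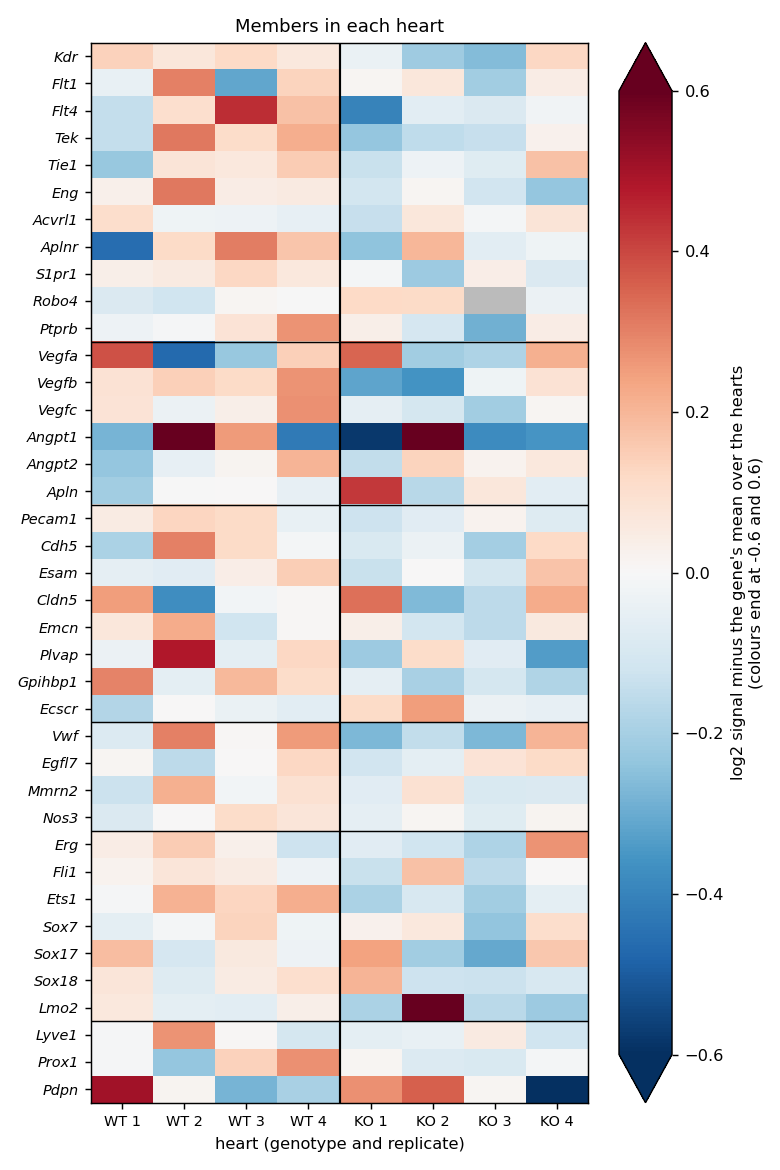
Log2 signal of the 39 genes in every heart, minus the mean of the gene over the hearts (colors end at -0.6 and 0.6, and the gray cell is a value left out). Over all members the WT replicate 2 heart held the highest value of 11 genes and SIRT1 KO replicate 3 the lowest of 12, and *Vegfa* and *Cldn5* were higher in replicates 1 and 4 than in replicates 2 and 3 of each genotype.

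Markers of other cells were read beside these values. Of the epicardial and mesothelial markers 8 of 9 were lower in the hearts labelled SIRT1 KO, with a median of -0.43. None passed the threshold, 5 had an unadjusted p under 0.05 (55.6%, against 20.4% of all genes), and 2 lay without overlap in the lower direction (22.2%, against 5.6%). Their mean level ran from 0.12 to 0.37 in WT hearts and from -0.45 to 0.06 in the others. Liver transcripts had 7 of 7 genes higher with a median of 1.33, none past the threshold, and were highest in SIRT1 KO replicates 1 and 4, at 2.44 and 1.53. Cardiomyocyte markers had 8 of 12 higher (median 0.09) and mural cell markers 9 of 13 (median 0.10), with none past the threshold in either list. An unadjusted p under 0.05 was reached by 3 cardiomyocyte markers (25%) and 4 mural cell markers (30.8%). The part of these cells in the endothelial values was not tested.

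A wider list of 100 genes tied to the same pathways and cells was then read. Like the members, the list was chosen with earlier results of these data known. Of the 100, 94 were tested. Of these, 5 passed the threshold (5.32%, against 4.58% of all genes), 1 higher and 4 lower, where 3.69% of all genes were called higher and 0.89% lower. The median over the 94 was -0.06. The split moved with the processing, to 1 higher and 19 lower without scaling (27.1% of all genes passed, and 84.9% were lower), 1 higher and 8 lower with median centring (6.85% and 75.5%), and 2 higher and 1 lower without the filter on dim probes. With 1 heart left out, 1 or 2 passed as higher and 1 to 3 as lower. In the lists by role, 1 of 36 partners of the VEGF and angiopoietin pathways passed, as higher, and 4 of 41 further endothelial genes passed, as lower. None of 17 lymphatic and endocardial genes passed with limma, 1 of them at an unadjusted p under 0.05.

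*Car4*, a carbonic anhydrase on capillary endothelium of heart and lung, was at -3.75, -2.94, -2.89 and -2.89 in WT hearts and at -4.37, -3.85, -4.10 and -3.96 in hearts labelled SIRT1 KO. It was lower by the largest amount in this list, by -0.96 on the log2 scale (adjusted p = 0.0328, limma, standard error 0.20) and with no overlap. With 1 heart left out it passed only without WT replicate 1, which lies apart from the other WT hearts (range of the values -1.17 to -0.85). With the normexp background correction it was -0.27 and did not pass (adjusted p = 0.143, limma). It also did not pass with the methods' analysis of variance (adjusted p = 0.109) or, in limma, without the filter on dim probes (adjusted p = 0.0678). Of the 9 lung markers, 3 were tested and 4 were not well above background in any heart, and none passed. The 3 tested stood at 1.02 for *Scgb3a2*, an airway secretoglobin, 0.29 for *Napsa* and -0.14 for *Lamp3*. Their part in the value of *Car4* was not tested.

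*Klf4*, a flow-responsive factor of endothelium that other cells use too, was at 3.23, 3.31, 3.24 and 3.22 in WT hearts and at 2.94, 2.80, 2.84 and 2.89 in hearts labelled SIRT1 KO. The genotypes were far apart against their spread (log2 fold change -0.38, standard error 0.07, adjusted p = 0.0136, limma), and it passed in 8 of 8 fits with 1 heart left out. *Gja4*, connexin 37 of arterial endothelium, was at 1.64, 1.93, 1.73 and 1.85 against 1.47, 1.39, 1.27 and 1.42 (log2 fold change -0.40, adjusted p = 0.0345, limma). *Ctla2a*, a protease inhibitor enriched in endothelium with the close relative *Ctla2b*, had a log2 fold change of -0.34 (adjusted p = 0.0468, limma). These calls were near the threshold, since *Gja4* passed in only 1 of the 8 fits that omit a heart, that without WT replicate 1, and *Ctla2a* in 0. Neither passed with quantile normalization, cyclic loess, the methods' analysis of variance or no filter on dim probes.

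*Shc2*, an adaptor of receptor tyrosine kinases that can bind KDR, was the gene that rose. It stood at 0.21, 0.12, 0.17 and 0.12 in WT hearts and at 0.65, 0.66, 0.85 and 0.59 in those labelled SIRT1 KO. The difference was 0.53 (adjusted p = 0.00609, limma, standard error 0.08), and all 8 fits that omit a heart called it too. *Calcrl*, the receptor for adrenomedullin, did not overlap between the genotypes but did not pass, with -0.30 (adjusted p = 0.0964, limma); it was named after its values were seen. Of the 94 genes, 8 (8.51%) did not overlap, 2 higher and 6 lower, against 14% of all genes. The other 2 of these were *Cd36*, at -0.15, and *Rasgrp3*, at 0.20, neither past the threshold.

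**Figure D4:**
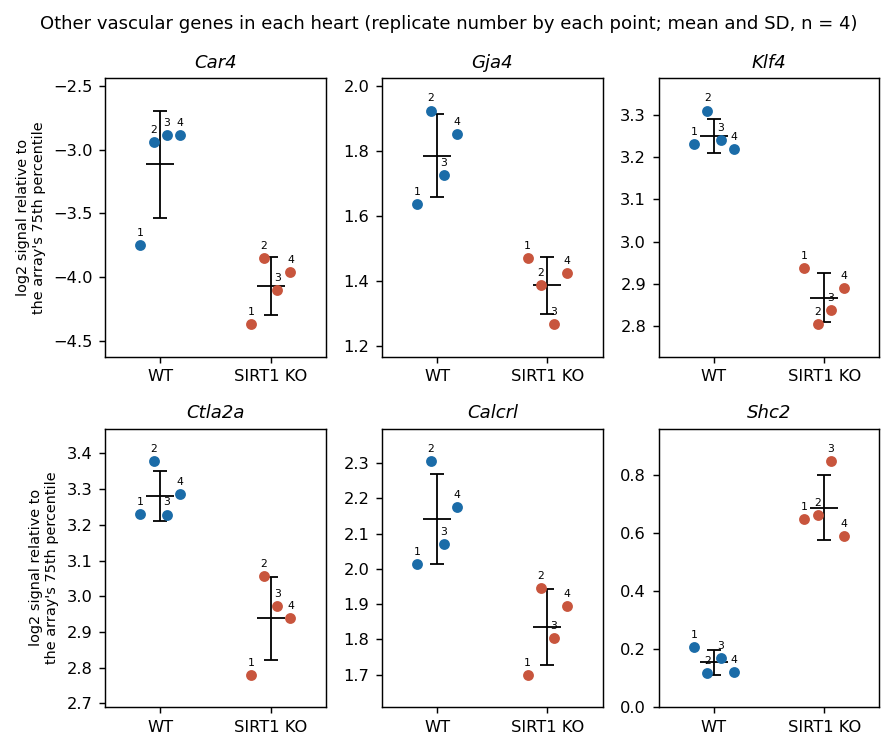
Log2 signal, relative to each array's 75th percentile, of 6 vascular genes outside the list of 40 in every heart (points, numbered by replicate) with the mean and SD of each genotype (n = 4). In each panel the genotypes do not overlap, with *Shc2* higher and the others lower in the hearts labelled SIRT1 KO.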

How the data were processed

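The values the authors deposited are spot intensity as Agilent's Feature Extraction software processed it, background-subtracted and not yet scaled across arrays. The submitters' processing notes name version 12 of it. The deposited series table held the same intensity values on 100% of spots, to within a relative difference of 1e-05. Intensity was put on the log2 scale and expressed relative to the 75th percentile of the array's non-control spots. That percentile was 939 to 1033 intensity units on the WT arrays and 777 to 906 on those labelled SIRT1 KO, without overlap. Outlier spots were left out and spots of a probe were averaged. Probe accessions were matched without versions to RefSeq names (GRCm38.p6), which named 28215 of 41174 probes (68.5%). A probe was tested if it was well above background on 4 or more of the 8 arrays, which left 25615 probes, and tests used limma 3.58.1 in R 4.3.3 and Benjamini-Hochberg adjustment. An array had 24489 to 26733 probes well above background, and the number of arrays limits the precision. A gene is read on its brightest tested probe. The sources used here do not say whether the hearts came from separate litters, so p-values measure the spread between these samples. On simulated arrays of 25535 probes, the fit called 86.5% of the 200 probes given a log2 difference of 1. Differences as small as those of the members were not simulated, nor was a difference between slides.

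Members and lists were chosen with earlier results of these data known. Named in full were members past the threshold or without overlap, *Pecam1*, *Cdh5*, *Kdr*, *Tek*, *Vegfa*, *Lyve1* and *Prox1*, and other vascular genes past the threshold; *Gpihbp1*, *Vegfb*, *Angpt1* and *Calcrl* were added after their values were seen. Alternatives covered scaling, background correction, filter, test, array weights, pairing and each array left out. Erythroid and thymus lists gave 1 of 7 and 0 of 1 tested genes past the threshold, the former being *Hbb-y*, higher.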

Additional observations from a re-analysis of the deposited data

Results flagged for a closer look

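In 7 of 87 groups of 4 hearts, 1 heart stood apart from the other 3 of its genotype by more than Dixon's 95% limit, where chance alone marks about 1 in 20 groups. Among the members, log2 signals that stood above the others were -1.93 for *Acvrl1* in WT replicate 1, 2.60 for *Eng* in WT replicate 2, -1.21 for *Lmo2* in SIRT1 KO replicate 2, 4.87 for *Mmrn2* in SIRT1 KO replicate 2 and 2.49 for *Sox18* in SIRT1 KO replicate 1. The log2 signal of *Flt4* stood below the others in SIRT1 KO replicate 1, at -3.76. Outside the members, *Car4* in WT replicate 1 lay at -3.75, against -2.94 to -2.89 in the other WT hearts.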

How the results depend on the processing

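Precision was limited by 4 arrays a genotype and by slide, scan day and genotype coinciding, so no slide term could be fitted. Over all probes, 1250 passed the threshold with limma. This count was 2131 with array weights, 546 with the methods' analysis of variance, 6352 without scaling, 2566 with normexp (on median signals) and 657 to 1825 with 1 array left out. Of the 39 endothelial genes, none passed, against 4.58% of all genes. Of these 39, 1 passed with array weights (*Vegfb*, against 7.75% of all genes) and 1 with normexp (*Ets1*, against 8.82%). With median scaling 2 of them passed (*Ets1* and *Gpihbp1*, against 6.85%) and without scaling 11 (against 27.1%). Of their 56 probes, 1, 1, 3 and 15 passed under the same settings in that order. Genes without overlap, 2 of 39, both lower, were 1 with cyclic loess or quantile normalization (higher, against 13.9% and 14.0% of all genes), 10 with median scaling, 16 without scaling (all lower, against 16.8% and 32.8% of all genes in that direction) and 2 to 7 with 1 array left out (against 16.8% to 24.4% of all genes in either direction). The median log2 fold change, -0.07, was -0.20 with median scaling, -0.29 without scaling and -0.10 to -0.05 with 1 array left out. The mean of the 10 core genes, -0.11, was -0.24, -0.33 and -0.15 to -0.08 in the same order. The sign of *Vegfa*, 0.08 on the brightest probe, turned to -0.081 for the mean over its probes, -0.044 with median scaling and -0.13 without scaling, and with 1 array left out it ran from -0.057 to 0.23, being negative without SIRT1 KO replicate 1 (-0.02) and without WT replicate 2. The count of genes with an interval within 1.5-fold, 37 of 39, was rerun under alternatives chosen after seeing the data, and was 18 without scaling and 30 to 38 in the others. Of the other vascular genes 5 passed. With cyclic loess, quantile normalization or no filter on dim probes 3 passed, with the methods' analysis of variance 2, with normexp 8, with median scaling 9, without scaling 20 and with 1 array left out 2 to 4. Median scaling and no scaling shifted the differences of all genes alike, their median going from -0.01 to -0.14 and -0.23. Beyond that shift, the cause of these changes was not tested, other than the fewer samples when an array is left out.

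Same-numbered samples of the genotypes deviated together with r of 0.31, 0.29, 0.08 and 0.27, and the labels give no shared litter or batch, so the numbers were not taken to pair the samples. Every sample correlated best with its own number, a hint from the data only. With the replicate number as a block, 1185 probes passed in all, 1 of the members' probes (the dimmer of *Angpt1*, -0.45), none of the 39 genes, and 3 of the other vascular genes, without *Gja4* (adjusted p = 0.0626, limma) and *Ctla2a* (adjusted p = 0.0574, limma). In that fit 9 of the 39 genes had an unadjusted p under 0.05. Naming probes by a gene column was not run, since probes were named through accessions.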
